A study of Mus musculus with 6 samples.

Results

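Marginal zone and follicular B cells are the mature B cells of the mouse spleen, and 9 genes that mark them or specify the B lineage are described here across 6 spleen arrays. The genes were chosen by name: Cr2, Cd1d1, S1pr3, Cd9, Notch2 and Dtx1 for the marginal zone, Fcer2a for the follicle, and Pax5 and Ebf1 as factors of all B cells. Every probe set whose platform annotation gives exactly 1 symbol, and that symbol among the 9, was taken, which gave 20 of the 45037 probe sets tested. Of these, 11 belong to marginal zone genes, 2 to Fcer2a and 7 to Pax5 and Ebf1, and all 9 genes matched the reference annotation through their gene identifiers. RNA came from snap-frozen spleens of adult female F1 hybrids, (AKR/J x FVB/NJ)F1 in 3 arrays (called AKR/J F1 spleens) and (DBA/2J x FVB/NJ)F1 in 3 arrays (DBA/2J F1 spleens). Both crosses were handled alike, with cervical dislocation under Avertin. All animals are first-generation hybrids, so every autosomal locus holds an FVB/NJ allele beside the AKR/J or DBA/2J allele, and the study set the genotypes side by side without any treatment. Values are log2 Affymetrix signals, and differences are AKR/J F1 spleens minus DBA/2J F1 spleens, with positive values where AKR/J F1 spleens stood higher. The labels do not say whether an array holds RNA of a single animal, so p-values rest on the spread between these arrays. A whole-spleen value cannot tell fewer B cells from less RNA per B cell.

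Marginal zone B cells sit at the border of red and white pulp and answer blood-borne antigens, whereas follicular B cells recirculate and enter germinal centres. Commitment to the marginal zone needs NOTCH2, which after cleavage moves to the nucleus, joins the DNA-binding protein RBPJ and switches on targets such as Dtx1. Cells that take this path carry much CD21, CD1d and CD9 and little CD23, the product of Fcer2a. PAX5 and EBF1 are transcription factors that establish and hold B cell identity in both subsets.

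The stretch before the transcription start is shown for genes on which the comparison turns: Cr2, Notch2 and Dtx1, where the arrays of the crosses separated, and Cd9 and Fcer2a, where they did not at the brightest probe set. Each line holds the 250 bases before a RefSeq start, read 5′ to 3′ on the gene's strand in build GRCm38.p6. These are chr1:195176720-195176969 (minus strand) for Cr2, chr6:125494761-125495010 (minus) for Cd9, chr3:98013288-98013537 (plus) for Notch2, chr5:120711670-120711919 (minus) for Dtx1 and chr8:3694175-3694424 (minus) for Fcer2a. Capitals mark the RBPJ core TGGGAA and the EBF core CCCNNGGG, each searched on both strands.
Cr2: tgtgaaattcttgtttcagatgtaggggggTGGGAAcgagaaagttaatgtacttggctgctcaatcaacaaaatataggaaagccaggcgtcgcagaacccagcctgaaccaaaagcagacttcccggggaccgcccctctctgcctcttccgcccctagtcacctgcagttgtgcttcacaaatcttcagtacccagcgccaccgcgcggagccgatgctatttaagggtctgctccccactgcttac
Cd9: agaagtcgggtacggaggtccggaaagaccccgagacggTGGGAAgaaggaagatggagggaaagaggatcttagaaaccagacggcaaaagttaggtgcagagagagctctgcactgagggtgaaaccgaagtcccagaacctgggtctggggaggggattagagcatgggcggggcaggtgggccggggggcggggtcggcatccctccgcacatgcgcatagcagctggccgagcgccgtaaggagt
Notch2: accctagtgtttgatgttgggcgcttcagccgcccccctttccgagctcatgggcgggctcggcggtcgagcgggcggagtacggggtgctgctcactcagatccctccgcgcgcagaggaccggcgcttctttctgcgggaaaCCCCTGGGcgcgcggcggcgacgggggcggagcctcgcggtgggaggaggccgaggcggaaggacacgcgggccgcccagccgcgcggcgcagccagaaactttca
Dtx1: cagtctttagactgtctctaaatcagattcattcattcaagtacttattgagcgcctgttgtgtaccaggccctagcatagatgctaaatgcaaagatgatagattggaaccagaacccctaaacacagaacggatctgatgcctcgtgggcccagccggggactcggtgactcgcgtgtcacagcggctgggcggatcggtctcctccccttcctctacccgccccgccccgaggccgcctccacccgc
Fcer2a: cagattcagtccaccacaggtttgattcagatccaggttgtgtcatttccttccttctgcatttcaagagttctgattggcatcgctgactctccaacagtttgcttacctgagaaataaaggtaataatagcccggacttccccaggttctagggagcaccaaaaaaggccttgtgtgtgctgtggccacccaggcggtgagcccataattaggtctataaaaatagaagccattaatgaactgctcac
The RBPJ letters begin 220 bases before the start in Cr2 and 211 bases before it in Cd9, and the EBF letters begin 106 bases before the start in Notch2. Neither motif lies in the window of Dtx1 or in this window of Fcer2a. RefSeq lists 2 other windows for Fcer2a that are not printed, and both hold the RBPJ letters, once in chr8:3690391-3690640 (beginning 205 bases before that start) and at 2 places in chr8:3690862-3691111. The 2 motifs overlap in none of the windows shown. In all promoter windows of this length, 21.6% held TGGGAA and 11.8% held CCCNNGGG. Among the 11 windows listed for member genes, 5 held the first and 1 the second. No window was listed for Cd1d1, although the arrays of the crosses separated there too. The windows show the reference build, and the alleles of these crosses were not read. A part of these letters in the differences between crosses was not tested. A match of letters is a description of the sequence and not a binding site.

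Most B cell probe sets stood slightly higher in AKR/J F1 spleens. The difference was positive at 18 of 20 probe sets, where 46.8% of all probe sets were positive. The median over the 20 was 0.31, against -0.02 over all probe sets. In limma with Benjamini-Hochberg adjustment over all probe sets, 5 of the 20 passed an adjusted p of 0.05, where 10.4% of all probe sets passed. Of these, 4 were higher in AKR/J F1 spleens (5.14% of all probe sets) and 1, the dim Notch2 probe set, was lower (5.26%). The arrays of the crosses did not overlap at 11 of the 20 (36.1% of all probe sets), with AKR/J F1 spleens above at 10 (17.7% of all probe sets) and below at 1 (18.3%). With the brightest probe set per gene and adjustment over 18193 genes, 3 of the 9 genes rose, namely Cr2, Cd1d1 and Dtx1, where 17.2% of all genes were called and 8.91% were called higher. When a single array was left out, 8 of the 20 probe sets passed without DBA/2J F1 replicate 1 and 0 without any other array, while 8 to 15 had an unadjusted p under 0.05. The median difference of the 20 stayed between 0.23 and 0.34 over all 12 alternatives.

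**Figure D1:**
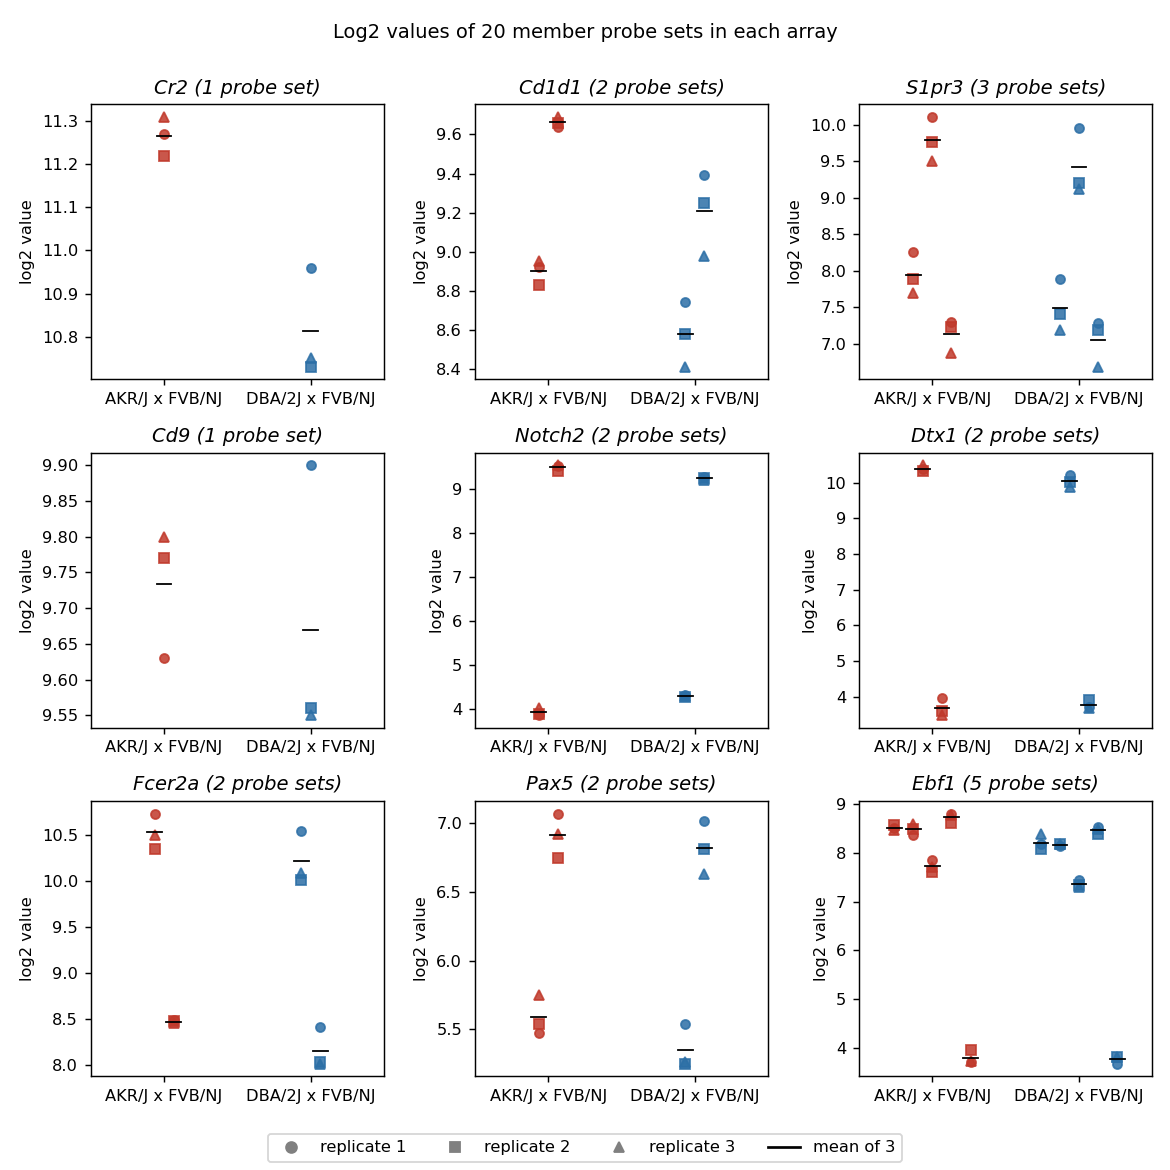
Log2 values of the 20 probe sets in every array, 1 panel per gene, AKR/J F1 spleens at left and DBA/2J F1 spleens at right, with marker shapes for replicates and a bar for the mean of 3. Cr2 and both probe sets of Cd1d1 separate by cross, while S1pr3 and Cd9 overlap, and DBA/2J F1 replicate 1 is the highest of its cross at the brightest probe set of all 9 genes.

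Cr2 encodes the complement receptors CD21 and CD35, which bind C3 fragments and lower the threshold of B cell activation. Its single probe set read 11.27, 11.22 and 11.31 in AKR/J F1 spleens, against 10.96, 10.73 and 10.75 in DBA/2J F1 spleens. The 3 AKR/J F1 arrays lay close together and above every DBA/2J F1 array. The means were 11.27 ± 0.05 and 10.82 ± 0.12 (SD, n = 3 each), a 1.37-fold difference (0.45 on the log2 scale, SE 0.09, limma adjusted p = 0.0234). This was the smallest p among the 20 probe sets. The adjusted p exceeded the threshold when any array other than DBA/2J F1 replicate 1 was left out (at most 0.0787), although the difference stayed between 0.41 and 0.52 over 12 alternatives.

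Cd1d1 encodes the CD1d molecule that shows lipids to natural killer T cells. Its brighter probe set read 9.64, 9.66 and 9.69 in AKR/J F1 spleens, against 9.39, 9.25 and 8.98 in DBA/2J F1 spleens. The AKR/J F1 arrays were nearly equal and stood above a wider DBA/2J F1 group. The difference was 0.45 ± 0.11 (SE, limma adjusted p = 0.0418). The other Cd1d1 probe set read 8.92, 8.83 and 8.95 in AKR/J F1 spleens, against 8.74, 8.58 and 8.41 in DBA/2J F1 spleens. It had the same order of crosses and a difference of 0.32 ± 0.10 that did not pass (limma adjusted p = 0.0751). The brighter probe set has the suffix that Affymetrix gives to probe sets that can match several transcripts, and Cd1d1 has the near copy Cd1d2, so its signal may be shared. The probe set annotated to Cd1d2 alone read 5.14 ± 0.08 in AKR/J F1 spleens and 5.25 ± 0.06 in DBA/2J F1 spleens (SD, n = 3 each) and did not pass. The Cd1d1 call was lost after quantile normalization (adjusted p = 0.0889) and in 5 of the 6 fits with 1 array left out, the exception again being DBA/2J F1 replicate 1.

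Notch2, the receptor that directs cells to the marginal zone, gave opposite readings at its 2 probe sets. The bright one read 9.53, 9.43 and 9.55 in AKR/J F1 spleens, against 9.29, 9.26 and 9.21 in DBA/2J F1 spleens. The crosses did not overlap there, and the difference was 0.25 ± 0.08 (SE), just outside the threshold (limma adjusted p = 0.0750). The other read 3.85, 3.87 and 4.02 in AKR/J F1 spleens, against 4.32, 4.26 and 4.28 in DBA/2J F1 spleens. There every AKR/J F1 array lay below every DBA/2J F1 array, with a difference of -0.37 ± 0.08 (limma adjusted p = 0.0317), at a level below the median of all probe sets (5.08). Bright minus dim within an array was 5.69, 5.56 and 5.53 in AKR/J F1 spleens, against 4.97, 5.01 and 4.93 in DBA/2J F1 spleens. The probe sets therefore disagreed by 0.62 between crosses without overlap (exact two-sided permutation p = 0.1, the smallest that 3 against 3 arrays can give, adjusted p = 0.36 over 18 pairs of probe sets of a gene). The call at the dim probe set was lost after quantile normalization (adjusted p = 0.0743) and in all 6 fits with an array left out (0.0528 to 0.0977). Averaging the 2 probe sets turned the Notch2 difference to -0.06, and leaving out dim probe sets before the gene-level fit brought the bright one past the threshold (adjusted p = 0.0414).

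Dtx1 encodes the ubiquitin ligase Deltex, a target of Notch signalling in B cells. Its bright probe set read 10.38, 10.32 and 10.49 in AKR/J F1 spleens, against 10.21, 10.02 and 9.88 in DBA/2J F1 spleens. The crosses did not overlap, and the difference was 0.36 ± 0.10 (SE, limma adjusted p = 0.0614 over probe sets and 0.0464 over genes). The dim Dtx1 probe set read 3.95, 3.61 and 3.48 in AKR/J F1 spleens, against 3.71, 3.91 and 3.69 in DBA/2J F1 spleens. It overlapped between crosses and carried no difference past the threshold (-0.09, adjusted p = 0.660). With the mean of both probe sets the gene-level difference was 0.13 (adjusted p = 0.298), and after quantile normalization it was 0.33 (adjusted p = 0.0940). Of the 6 fits with 1 array left out, 5 put the gene outside the threshold, all but the fit without DBA/2J F1 replicate 1.

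S1pr3 encodes a receptor for sphingosine 1-phosphate on marginal zone B cells and on vascular cells, and it was the most variable member among arrays of a cross. Its brightest probe set read 10.11, 9.76 and 9.50 in AKR/J F1 spleens, against 9.96, 9.20 and 9.12 in DBA/2J F1 spleens. Replicate 1 was the highest array of each cross, and the groups overlapped. The difference was 0.36 ± 0.23 (SE, 95% confidence interval -0.17 to 0.90, limma adjusted p = 0.324). The other S1pr3 probe sets differed by 0.46 (adjusted p = 0.164) and 0.08 (adjusted p = 0.773), also with overlap. Without DBA/2J F1 replicate 1 the S1pr3 difference at gene level was 0.63 (adjusted p = 0.0425).

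Cd9 encodes a tetraspanin of marginal zone B cells that platelets also carry. It read 9.63, 9.77 and 9.80 in AKR/J F1 spleens, against 9.90, 9.56 and 9.55 in DBA/2J F1 spleens. Replicate 1 of DBA/2J F1 spleens was the highest of all 6 arrays and its 2 companions the lowest. The difference was 0.06 ± 0.11 (SE, 95% confidence interval -0.20 to 0.32, limma adjusted p = 0.738), the smallest of the 9 brightest probe sets. All 10 measured megakaryocyte and platelet genes had negative values (median -0.29), 0 of them past the threshold and 4 at an unadjusted p under 0.05. Their mean level was 7.96 to 8.24 in AKR/J F1 spleens and 8.15 to 8.61 in DBA/2J F1 spleens, highest in DBA/2J F1 replicate 1. Their part in the Cd9 value was not tested.

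Fcer2a encodes CD23, the low-affinity receptor for IgE that is abundant on follicular B cells and sparse on marginal zone B cells. Its bright probe set read 10.73, 10.35 and 10.50 in AKR/J F1 spleens, against 10.54, 10.01 and 10.09 in DBA/2J F1 spleens. Replicate 1 was the highest array of each cross, and the groups overlapped through DBA/2J F1 replicate 1. The second probe set read 8.49, 8.48 and 8.46 in AKR/J F1 spleens, against 8.42, 8.04 and 8.02 in DBA/2J F1 spleens, with no overlap. The difference was 0.32 at each (SE 0.16 and 0.12, limma adjusted p = 0.208 and 0.112). Without DBA/2J F1 replicate 1 these were 0.48 (adjusted p = 0.0499) and 0.45 (adjusted p = 0.018), and both then passed.

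Pax5, which holds cells in the B lineage, overlapped between crosses at both probe sets. The brighter read 7.07, 6.75 and 6.92 in AKR/J F1 spleens, against 7.02, 6.81 and 6.63 in DBA/2J F1 spleens, a difference of 0.10 ± 0.12 (SE, limma adjusted p = 0.633). The other differed by 0.23 ± 0.11 (adjusted p = 0.204).

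Ebf1, which acts upstream of Pax5 in B cell development and is also expressed in stromal and fat cells, had 5 probe sets. At 4 of them AKR/J F1 spleens lay above DBA/2J F1 spleens without overlap, by 0.26 to 0.36. The brightest read 8.81, 8.62 and 8.78 in AKR/J F1 spleens, against 8.54, 8.39 and 8.49 in DBA/2J F1 spleens (0.26 ± 0.09, limma adjusted p = 0.0917). The 2 that rose past the threshold differed by 0.33 ± 0.09 (adjusted p = 0.0466) and 0.36 ± 0.09 (adjusted p = 0.0453). The fifth, at 3.79 in AKR/J F1 spleens and 3.76 in DBA/2J F1 spleens and so below the median of all probe sets, differed by 0.02. Both Ebf1 calls were lost after quantile normalization (adjusted p = 0.125 and 0.118). Without 1 array, the first was lost in every fit and the second in all but the fit without DBA/2J F1 replicate 1. The 4 measured fat cell genes spanned mean levels of 4.99 to 5.83 in AKR/J F1 spleens and 4.54 to 5.25 in DBA/2J F1 spleens. Of these 0 passed (1 at an unadjusted p under 0.05). The largest difference was at Adipoq (1.44, limma adjusted p = 0.111), with overlap between crosses. With array weights 1 of the 4 passed. Without AKR/J F1 replicate 1 also 1 passed (3 unadjusted), and 0 without any other array (0 or 1 unadjusted). The part of fat cells in the Ebf1 values was not tested.

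**Figure D2:**
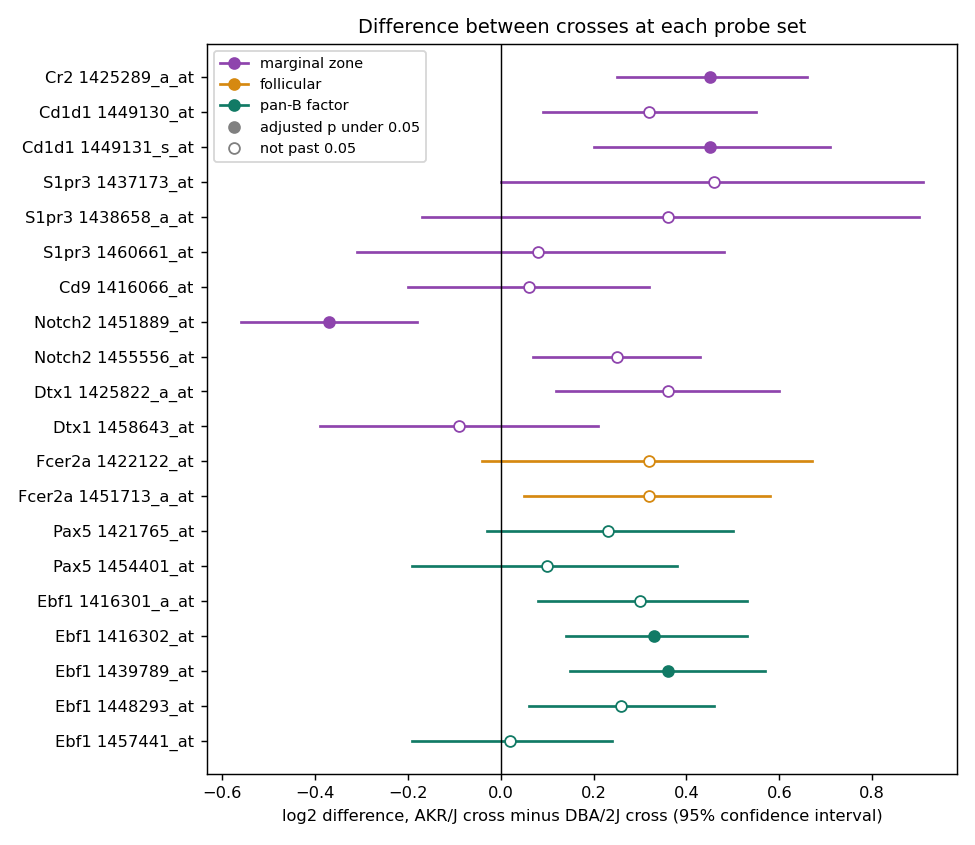
Log2 difference, AKR/J F1 spleens minus DBA/2J F1 spleens, with its 95% confidence interval from limma for each of the 20 probe sets, coloured by role, filled where the adjusted p was under 0.05. Most points lie between 0.2 and 0.5 whatever the role, and the dim Notch2 probe set alone among the filled points lies left of 0.

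At the brightest probe sets, marginal zone genes did not separate from the follicular gene. To compare them, the log2 value of Fcer2a, Pax5 or Ebf1 in an array was subtracted from that of each of the 6 marginal zone genes in the same array, at the brightest probe set, and the crosses were compared over these 18 pairs. Cr2 minus Fcer2a was 0.54, 0.86 and 0.81 in AKR/J F1 spleens, against 0.42, 0.72 and 0.67 in DBA/2J F1 spleens. The crosses overlapped, and their difference was 0.13 (exact two-sided permutation p = 0.4, adjusted p = 0.72 over the pairs). In a limma fit on such differences, added after the data were seen, the 95% confidence interval ran from -0.36 to 0.63. Relative to Fcer2a, the 6 genes differed by -0.25 (Cd9) to 0.14 (Cd1d1), and the arrays of the crosses overlapped for each. The overlap depended on the probe set. With the second Fcer2a probe set, Cd9 was lower relative to Fcer2a in AKR/J F1 spleens without overlap. Cr2 was higher there, with its nearest arrays of the 2 crosses within rounding of each other. With probe sets averaged per gene, Notch2 and Cd9 were lower relative to Fcer2a without overlap. A shift of marginal zone genes against Fcer2a smaller than these intervals was not detectable with 3 arrays a group.

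Against the factors of all B cells, some pairs separated at the brightest probe sets, but this depended on the probe set. With the other Pax5 probe set, Cd1d1 and Dtx1 overlapped between crosses and Cr2 did not. Cr2 minus Ebf1 overlapped at each of the other Ebf1 probe sets above the median level. With probe sets averaged per gene, 7 of the 18 pairs did not overlap, in either direction. Cr2 and Cd1d1 against Pax5 and Cr2 against Ebf1 were higher in AKR/J F1 spleens. Notch2 against Fcer2a, Pax5 and Ebf1, and Cd9 against Fcer2a, were lower there. Dtx1 against Pax5 then overlapped. The values that follow are those of the brightest probe sets. Dtx1 minus Pax5 was 3.31, 3.57 and 3.57 in AKR/J F1 spleens, against 3.19, 3.21 and 3.25 in DBA/2J F1 spleens, with no overlap and a difference of 0.26. Cr2 and Cd1d1 each stood 0.36 higher relative to Pax5 without overlap. Cr2 minus Ebf1 was 2.47, 2.60 and 2.54 in AKR/J F1 spleens, against 2.42, 2.34 and 2.27 in DBA/2J F1 spleens, also without overlap (0.19). These 4 pairs had exact two-sided permutation p = 0.1, the smallest the design allows, and adjusted p = 0.45 over the 18 pairs. For scale, 36.1% of all single probe sets did not overlap between crosses. The share over all genes for such within-array differences was not computed, so the count of 4 is a description only. In the added limma fit 0 of 18 pairs passed (smallest adjusted p = 0.153), with 0.0913 the smallest unadjusted p. Notch2 relative to Ebf1 differed by -0.01 (95% confidence interval -0.23 to 0.22).

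**Figure D3:**
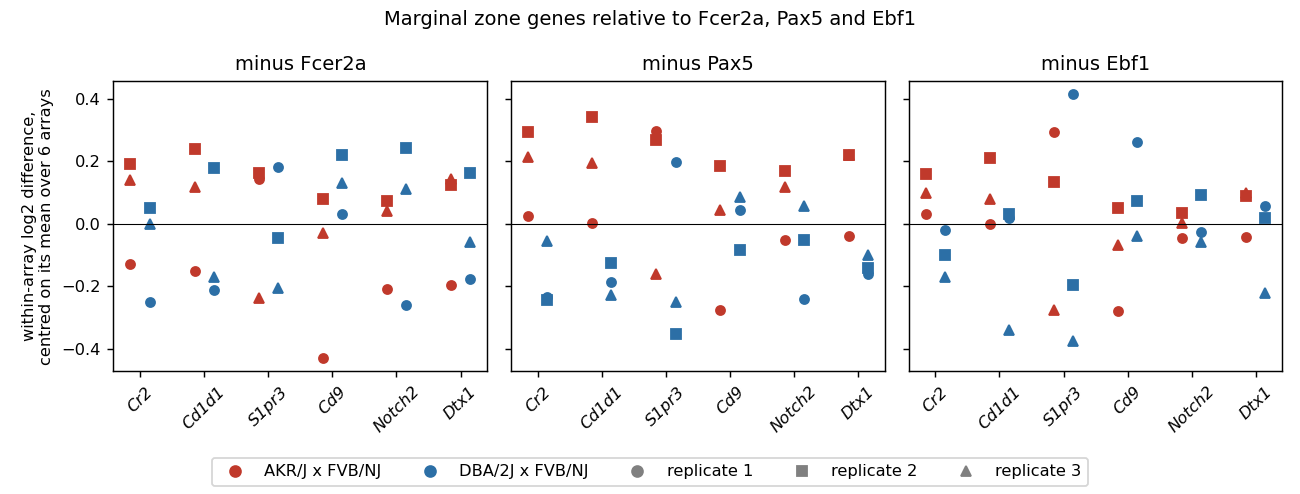
Within-array log2 differences of the 6 marginal zone genes from Fcer2a (left), Pax5 (middle) and Ebf1 (right), each centred on its mean over the 6 arrays, with AKR/J F1 spleens left of DBA/2J F1 spleens and marker shapes for replicates. At the brightest probe set of each gene, the crosses overlap for every gene against Fcer2a. They separate for Cr2, Cd1d1 and Dtx1 against Pax5 and for Cr2 against Ebf1.

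Other genes of marginal zone B cells mostly had positive differences, with few calls. Of 11 measured genes for retention and function, 1 rose, 0 fell and 10 did not pass, a share near the 8.91% of all genes called higher. The median was 0.24, against -0.01 over all genes. The gene that rose was Ackr3, an atypical receptor for the chemokine CXCL12 (9.17 ± 0.21 in AKR/J F1 spleens and 8.64 ± 0.10 in DBA/2J F1 spleens, difference 0.53, limma adjusted p = 0.0240). The integrin chain Itgal (0.31, adjusted p = 0.0512) and the cannabinoid receptor Cnr2 (0.51, adjusted p = 0.0578), both tied to holding these cells in place, did not pass. S1pr1, the receptor that draws B cells toward blood, had a value of 0.35 (adjusted p = 0.189). Smaller values stood at the integrin chain Itga4 (0.09) and at Cd36 (0.06). Negative values stood at 2 of the 11, the integrin chain Itgb1 (-0.07) and Cd1d2. Cd1d2 was lower in AKR/J F1 spleens without overlap (-0.11, adjusted p = 0.341). Without DBA/2J F1 replicate 1, 7 of the 11 rose, and 0 or 1 did without any other array.

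The Notch pathway list held 30 measured genes beyond Notch2 and Dtx1, with a median of 0.09. Of these, 25 did not pass, 0 fell (8.31% of all genes) and 5 rose (8.91% of all genes). They were the ligand Jag1 (0.43, limma adjusted p = 0.0254), the coactivator Maml1 (0.37, adjusted p = 0.0255), the receptor Notch3 (0.44, adjusted p = 0.0338), the gamma-secretase subunit Ncstn (0.32, adjusted p = 0.0345) and the ubiquitin ligase Itch (0.29, adjusted p = 0.0494). The ligand for NOTCH2 in the spleen, Dll1, had a value of 0.08 (adjusted p = 0.516). RBPJ itself (Rbpj, 0.07) and the targets Hes1 (0.04) and Nrarp (-0.08) did not pass either. Negative values stood at 9 of the 30. The crosses did not overlap with AKR/J F1 spleens below at 2 genes, Dtx2 (-0.22, adjusted p = 0.0877) and Adam10 (-0.22, adjusted p = 0.110). AKR/J F1 spleens lay above without overlap at 12. Over all 18193 genes these counts were 3491 below and 4000 above. After quantile normalization 0 of the 30 passed in limma (8 at an unadjusted p under 0.05) and the median was 0.01. Likewise 0 passed (10 to 12 unadjusted) without AKR/J F1 replicate 1 or 2 or without DBA/2J F1 replicate 2 or 3.

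Follicular and general B cell genes did not all go one way. Over all genes, 8.91% were called higher and 8.31% lower. Of 6 measured follicular genes 2 rose, the chemokine receptor Cxcr5 (0.50, limma adjusted p = 0.0239) and the complement regulator Cd55 (0.42, adjusted p = 0.0270). The transcription factor Bach2, which restrains plasma cell formation, fell: it averaged 8.85 ± 0.21 in AKR/J F1 spleens and 9.36 ± 0.07 in DBA/2J F1 spleens (SD, n = 3 each; -0.51, adjusted p = 0.0249). Of 13 other B cell genes 3 rose, 0 fell and 10 did not pass (median 0.30). Bank1, an adaptor of B cell receptor signalling, was among them (0.36, adjusted p = 0.0342), whereas the kinase Blk (-0.03) and the coactivator Pou2af1 (0.01) had values near 0. Of 14 transcription factors of the B lineage 1 rose, Ikzf3, which encodes Aiolos (0.42, adjusted p = 0.0255). Of 8 BAFF and NF-kB genes 1 rose, Rel (0.45, adjusted p = 0.0246). Without DBA/2J F1 replicate 1, 9 of the 13 other B cell genes rose, and without any other single array 0 did (6 to 8 at an unadjusted p under 0.05). Of the follicular genes, 0 to 2 rose with an array left out, and 1 fell without AKR/J F1 replicate 3 or without DBA/2J F1 replicate 1, against 0 in the other such fits. After quantile normalization 0 of the follicular genes rose and 1 fell in limma (3 at an unadjusted p under 0.05). Of the other B cell genes 1 rose and 0 fell (6 unadjusted). In that setting 0 B lineage factors and 0 BAFF and NF-kB genes passed (3 and 2 unadjusted). With an array left out, 0 of the factors passed without AKR/J F1 replicate 1 or 2 or DBA/2J F1 replicate 2 or 3 (1 or 2 unadjusted). Of the BAFF and NF-kB genes 0 passed without AKR/J F1 replicate 2 or 3 or DBA/2J F1 replicate 2 or 3 (1 to 3 unadjusted).

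**Figure D4:**
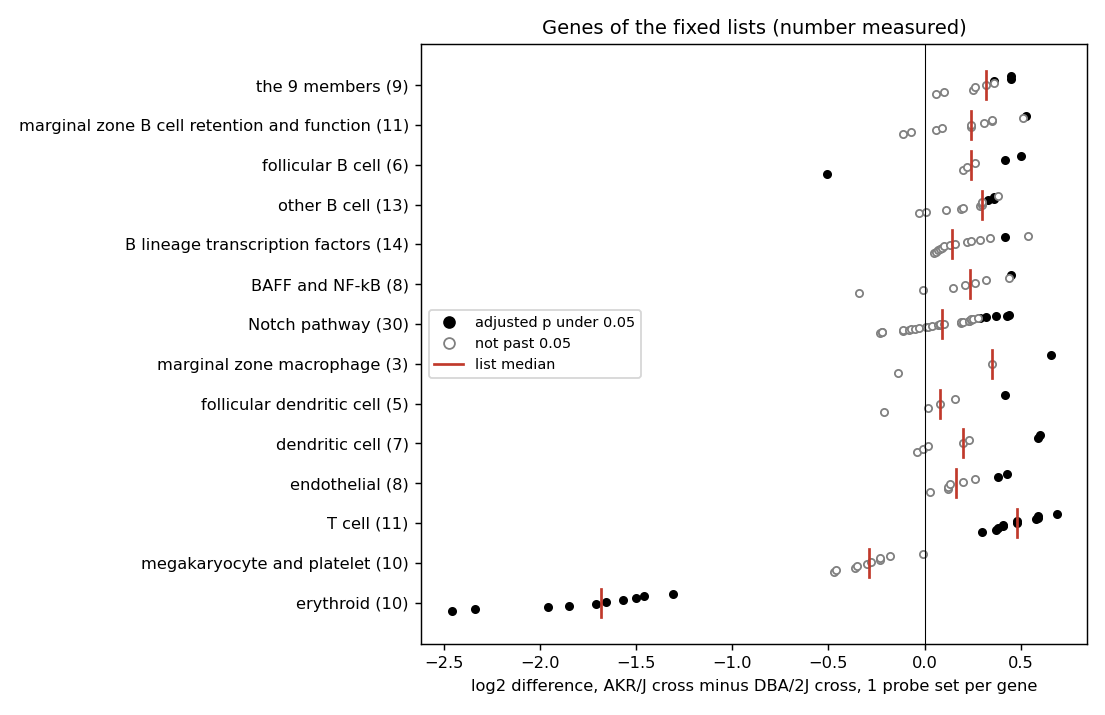
Log2 difference, AKR/J F1 spleens minus DBA/2J F1 spleens, at 1 probe set per gene for the 9 members and for 13 lists of genes, filled where the limma adjusted p was under 0.05, with a red bar at each list's median. The members and the B cell lists lie mostly between 0 and 0.5, T cell genes at 0.30 to 0.69 and erythroid genes at -2.46 to -1.31.

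Markers of other spleen cells moved between the same arrays. The shares of all genes called were 8.91% higher and 8.31% lower. All 11 measured T cell genes rose (median 0.48) and all 10 erythroid genes fell (median -1.68), with 6 to 10 of the T cell genes and 8 to 10 of the erythroid genes past the threshold when any array was left out. The mean erythroid level was 7.89 to 8.55 in AKR/J F1 spleens and 9.57 to 10.36 in DBA/2J F1 spleens, lowest of its cross in DBA/2J F1 replicate 1. That array was the highest of its cross at 16 of the 20 B cell probe sets. Of cells that share members, follicular dendritic cells, which carry Cr2, had 1 of 5 genes higher (Fcgr2b, 0.42, which B cells also express). Cxcl13 of that list differed by -0.21 (limma adjusted p = 0.204), with every DBA/2J F1 array above every AKR/J F1 array. The mean level of the list was 10.17 to 10.23 in AKR/J F1 spleens and 9.99 to 10.20 in DBA/2J F1 spleens. Endothelial genes, relevant to S1pr3, had 2 of 8 higher (Tek, 0.43, and Kdr, 0.38) and mean levels of 7.89 to 8 in AKR/J F1 spleens and 7.61 to 7.82 in DBA/2J F1 spleens. Of marginal zone macrophage genes 1 of 3 was higher (Marco, 0.66), with mean levels of 8.34 to 8.43 in AKR/J F1 spleens and 8.05 to 8.16 in DBA/2J F1 spleens. Siglec1 of that list went the other way without overlap (-0.14, limma adjusted p = 0.208). Negative values stood at 2 of 7 dendritic cell genes and 2 of 6 plasma cell genes, 0 of them past the threshold. Of dendritic cell genes 2 of 7 were higher (Siglech, 0.60, and Zbtb46, 0.59), and of plasma cell genes 1 of 6 (Derl3, 0.48). These counts were not stable when an array was left out: 0 to 2 endothelial genes passed (0 without any AKR/J F1 array or DBA/2J F1 replicate 2, with 2 or 3 at an unadjusted p under 0.05). For dendritic cells 0 to 3 passed (0 without AKR/J F1 replicate 1 or DBA/2J F1 replicate 2, with 2 unadjusted in limma). Of the plasma cell genes 3 passed without DBA/2J F1 replicate 1 and 0 without any other array (2 to 4 unadjusted) or after quantile normalization (3 unadjusted). The follicular dendritic cell count was 0 without any AKR/J F1 array or DBA/2J F1 replicate 2 (1 unadjusted). Of 5 red pulp macrophage genes 0 passed (also 0 at an unadjusted p under 0.05, median 0.02). Pancreatic acinar genes averaged 13.91 to 13.97 in AKR/J F1 spleens and 6.05 to 13.75 in DBA/2J F1 spleens, with the low value in replicate 3. Without that array the Cr2 difference was 0.42 and the Cd1d1 difference 0.34, and 0 of the 20 member probe sets passed (10 at an unadjusted p under 0.05). The part of these other cells in the B cell values was not tested.

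Among the members, Notch2 and Ebf1 had the most alike patterns over the 6 arrays, with a root mean squared difference of 0.05 after each gene's own mean was subtracted. Cr2 and Dtx1 (0.07) and Cd1d1 and Dtx1 (0.07) followed, and S1pr3 stood farthest from Notch2 and Cd9 (0.31 each). Among 9096 genes at or above the median level, those nearest to Cr2 were Rnf170 (0.019), Cdyl2 (0.021), Pik3ap1 (0.025), Parp9 (0.027) and Rnf13 (0.029). Those nearest to Fcer2a were Nfkbid (0.045), Rbak (0.049), Gadd45b (0.051), Zbtb4 (0.053) and BC028528 (0.055).

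The chromosomal neighbours of the members did not share a direction. Of 34 measured genes within 2 places of a member in gene order, 2 were called higher and 4 lower in AKR/J F1 spleens, where 8.91% and 8.31% of all genes were. Next to Cr2, its relative Cr1l, a complement regulator, differed by 0.03 (9.21 in AKR/J F1 spleens and 9.18 in DBA/2J F1 spleens, adjusted p = 0.804). Near Fcer2a, the lectin Cd209a of dendritic cells was 0.70 higher (adjusted p = 0.00347), while Clec4g, a lectin gene between them, had a value of -0.03. Near Dtx1, the antiviral gene Oas3 was lower (-0.43, adjusted p = 0.0241).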

How the data were processed

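Spleen RNA of F1 females was hybridised to 6 Affymetrix arrays, and groups came from sample titles. The authors deposited log2 values on a common scale (array medians 5.05 to 5.1, log scale judged from the values). RMA and MAS5 are both named, per the submitters' processing notes, and the labels and files do not tell which made the values. Whether strain variants lie under the probes was not tested. Arrays carry no read depth, so their number limits precision. No pair of arrays shared more than 181 equal values, so all were kept as separate samples.

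Of 45101 probe sets, 64 controls were left out. Platform annotation gave 1 symbol to 34945, several to 932 and none listed to 9160. Differences were tested with limma 3.58.1 (lmFit, eBayes) in R 4.3.3 (data.table, version 1.17.8, and statmod 1.5.0), without covariates. Adjusted p-values are Benjamini-Hochberg over 45037 probe sets, or over 18193 genes at the probe set of highest mean, with a threshold of 0.05. The fit was checked on simulated data. Within-array differences used exact two-sided permutation, which cannot go below 0.1.

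Members and lists were chosen with earlier results of these data known. All members were named, with up to 4 called genes of smallest adjusted p per list (or the gene of smallest p), any gene of the Notch and marginal zone lists, and the 5 genes nearest to Cr2 and Fcer2a. Blk, Pou2af1, Siglec1, Cxcl13 and the named neighbours were chosen after values were seen. No list was tested as a set. Alternatives were 2 rescalings, a filter below the 40th percentile of level, another variance model, array weights, a replicate block, probe set means and leaving out each array. Promoters came from RefSeq, GRCm38.p6.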

Additional observations from a re-analysis of the deposited data

How the results depend on the processing

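The count of member probe sets past the threshold, 5 of 20, was 1 after quantile normalization and 8 with array weights, and 0 to 8 when a single array was left out (8 without DBA/2J F1 replicate 1, 0 without any other). The count of member genes, 3 of 9, was 5 with each array centred on its median, 1 after quantile normalization and 5 with a trended and robust variance, and 0 to 5 without a single array. The genes of the fixed lists past the threshold, 42 of 157, numbered 26 after quantile normalization, 65 with array weights and 17 to 62 without a single array. The marginal zone pairs whose crosses did not overlap in either direction, 4 of 18, numbered 7 with probe sets averaged per gene and 5 to 8 without a single array. With probe sets averaged, some of these pairs were lower in AKR/J F1 spleens, while all 4 were higher there at the brightest probe sets. Leaving out an array cannot make separated crosses overlap, so the counts in those fits could not fall below 4. Over all probe sets 4688 passed, and 1001 to 4793 without a single array. Centring moved the split to 3050 higher and 1878 lower in AKR/J F1 spleens, against 2317 and 2371 as deposited, and the median over all probe sets was -0.018 as deposited and 0.014 centred.

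Some signs turned. Notch2 at gene level, 0.25 at its brightest probe set, was -0.06 with the mean of its probe sets. The dim Dtx1 probe set was 0.01 after quantile normalization and -0.23 to 0.01 with an array left out (0.01 without AKR/J F1 replicate 3). The dim Ebf1 probe set spanned -0.05 to 0.07 in such fits and the third S1pr3 probe set -0.10 to 0.22. The causes were not tested, beyond the smaller number of arrays in the fits that leave one out.

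With the replicate number as a replicate block, 5 member probe sets, 2 member genes and 42 list genes passed. The numbers are not known to pair animals: deviations of same-numbered arrays from their group means correlated at 0.28, 0.17 and 0.05. Each number 1 and 2 array correlated best with its own number, and DBA/2J F1 replicate 3 correlated better with AKR/J F1 replicate 2 (0.09). S1pr3 passed at 1 probe set under that block (0.46, adjusted p = 0.0271), whereas 1 Ebf1 probe set (adjusted p = 0.0557) and Dtx1 at gene level (adjusted p = 0.0671) did not.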
